A study of Mus musculus with 19 samples.

Results

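The surfactant genes of alveolar type 2 (AT2) cells were followed in the lungs of mice given a mixture of polycyclic aromatic hydrocarbons (PAHs) by mouth. The set was every array probe whose RefSeq identifier mapped to Sftpa1, Sftpb, Sftpc, Sftpd, Abca3, Lamp3, Slc34a2, Napsa, Lpcat1 or Nkx2-1. It held 12 probes for these 10 genes, out of 55681 probes and 20660 named genes. Sftpb and Sftpd had 2 probes each, and the single Nkx2-1 probe was printed in 10 spots per array. All 12 probes passed the filter on dim signals that left 31046 probes for testing.

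All animals were male MutaMouse, a transgenic strain that carries a bacterial reporter gene for mutation assays, aged about 12 weeks. A defined mixture of 8 PAHs dissolved in olive oil was given by gavage daily for 28 days, and lungs were collected 72 h after the final dose. The groups were D0 (olive oil alone, 5 mice), D1 (15 mg per kg and day, as benzo[a]pyrene equivalents, 4 mice), D2 (30 mg, 5 mice) and D3 (60 mg, 4 mice). Total RNA from random sections of whole lung, labelled with Cy5, was hybridised on 19 two-colour arrays against a common reference RNA from mouse cell lines labelled with Cy3. The methods of the paper give the right lobe as the part of the lung collected. The values below are log2 ratios of lung over reference, so a value of 1 is a doubling, and a change is the difference between the group means of these ratios. Adjusted p-values are from limma with Benjamini-Hochberg adjustment over every tested probe, and a called probe had one no higher than 0.05 and moved 1.5-fold or more.

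AT2 cells line the alveolus beside the flat type 1 cells, and they make, store and recycle pulmonary surfactant, the lipid and protein film that keeps the air spaces open. The lipids are built in the endoplasmic reticulum, pumped into lamellar bodies and released with the hydrophobic proteins SP-B and SP-C. SP-A and SP-D are secreted collectins of innate defence. The transcription factor NKX2-1 binds the promoters of several surfactant genes and is made throughout the lung epithelium, and the SP-A, SP-B and SP-D genes are also transcribed in airway club cells. In whole lung, fewer AT2 cells and less RNA per AT2 cell cannot be told apart.

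Promoters were available in the RefSeq table (assembly GRCm38.p6) for 7 of the 10 genes. For Sftpc, Sftpd and Napsa the lookup by gene symbol found no promoter in it. The 250 bases before the start site are shown 5′ to 3′ for the SP-A and SP-B genes, where the capitals mark TCAAG or its reverse complement CTTGA, a core of NKX2-1 sites, and for Abca3, where they mark GCGTG or CACGC, the core of the response element of AHR, the aryl hydrocarbon receptor, which binds PAHs.
Sftpa1, chr14:41131538-41131787 (plus strand): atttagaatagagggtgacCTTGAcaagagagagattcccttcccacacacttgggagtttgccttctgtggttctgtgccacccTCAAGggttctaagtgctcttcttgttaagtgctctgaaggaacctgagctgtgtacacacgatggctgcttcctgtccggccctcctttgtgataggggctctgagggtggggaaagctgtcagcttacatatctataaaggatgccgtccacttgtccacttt
Sftpb, chr6:72304360-72304609 (plus strand): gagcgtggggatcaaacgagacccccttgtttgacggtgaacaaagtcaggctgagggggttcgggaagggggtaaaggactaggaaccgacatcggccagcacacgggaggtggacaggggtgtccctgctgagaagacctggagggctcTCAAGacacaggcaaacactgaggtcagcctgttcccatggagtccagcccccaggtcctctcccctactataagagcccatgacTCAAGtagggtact
Abca3, chr17:24351773-24352022 (plus strand): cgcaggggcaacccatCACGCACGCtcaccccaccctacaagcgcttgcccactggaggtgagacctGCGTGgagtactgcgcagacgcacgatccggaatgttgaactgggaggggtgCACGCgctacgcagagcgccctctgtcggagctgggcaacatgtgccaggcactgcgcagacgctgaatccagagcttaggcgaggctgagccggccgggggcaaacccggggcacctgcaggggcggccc
Within the 300 bases from 250 before to 50 after the start, TCAAG occurred on either strand in 3 of 7 surfactant promoters (Sftpa1, Sftpb and Nkx2-1) and in 40.7% of all 32851 promoters. The longer NKX2-1 motif GCNCTNNAG lay in the same 3 promoters and in 17.5% of all. The forkhead motif TGTTTAC was in 1 of 7, that of Lamp3, and in 3.65% of all. GCGTG was in 4 of 7 (Slc34a2, Sftpb, Lpcat1 and Abca3) and in 32.4% of all. Abca3 held 5 matches to GCGTG, of which 4 lie in the stretch shown and 1 pair of those shares letters. In Sftpb, 1 of the TCAAG matches overlaps the longer motif. A match describes the letters and not a site in use.

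The arrays lay on 3 slides of 8, 7 and 4 arrays, and each slide held all 4 dose groups. On every slide each dose group occupied its own column, and array column and dose group cannot be told apart. Mouse 35 of D3 was hybridised on slides 2 and 3, and its 2 arrays were averaged. The array labelled D2 Mouse 23 carries an animal number from the D1 range and was kept in D2. The methods give the larger group size to D1, and the labels give it to D2. With this mouse counted in D1, the median change of the 12 probes described below was −0.27 at D1 and −0.015 at D2, and the counts of called probes stayed at 0. Between 54.5% and 64.7% of spots were well above background in the lung channel, and the scanner software marked no spot as saturated. Of the exposure markers, Cdkn1a and Ccng1, which p53 induces, and Cyp1b1, an AHR target, were called at all 3 doses, and Cyp1a1 at D2 and D3.

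The surfactant genes were strongly expressed in all groups and none was called at any dose. All 12 probes were well above background in the lung channel of every mouse with a value. In D0 the geometric mean of the normalized ratio of lung over reference was between 5.07 (Lpcat1) and 257 (Sftpd probe 1). With limma, 0 of 12 probes were called at D1, D2 or D3, where 1.06%, 0.625% and 2.44% of all tested probes were called. At an unadjusted p under 0.05, 2, 1 and 4 of the 12 were lower than in D0, where 9.41%, 6.88% and 13.1% of all tested probes were. The median change of the 12 was −0.26 at D1, −0.08 at D2 and −0.32 at D3, beside medians of 0.01, −0.00 and −0.00 over all tested probes. At each dose 11 of 12 probes had a change below 0 in the loess ratios. Taken relative to the median of all tested probes, that direction turned for 8, 8 and 4 of the 11 at D1, D2 and D3 under at least 1 of 6 other scalings. At D3, 2 of 12 probes passed the adjusted p with a lower level, those of Abca3 and Sftpb probe 2, where 6.37% of all tested probes did so. At D1 and D2 none did, where 2.31% and 0.718% of all tested probes did. The 95% confidence interval reached beyond a 1.5-fold decrease for 5, 1 and 9 of the 12 probes at D1, D2 and D3, so this fit did not separate these from a decrease of that size. With slide as a block in the model, the interval reached that far for 0, 0 and 3 of the 12.

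**Figure D1:**
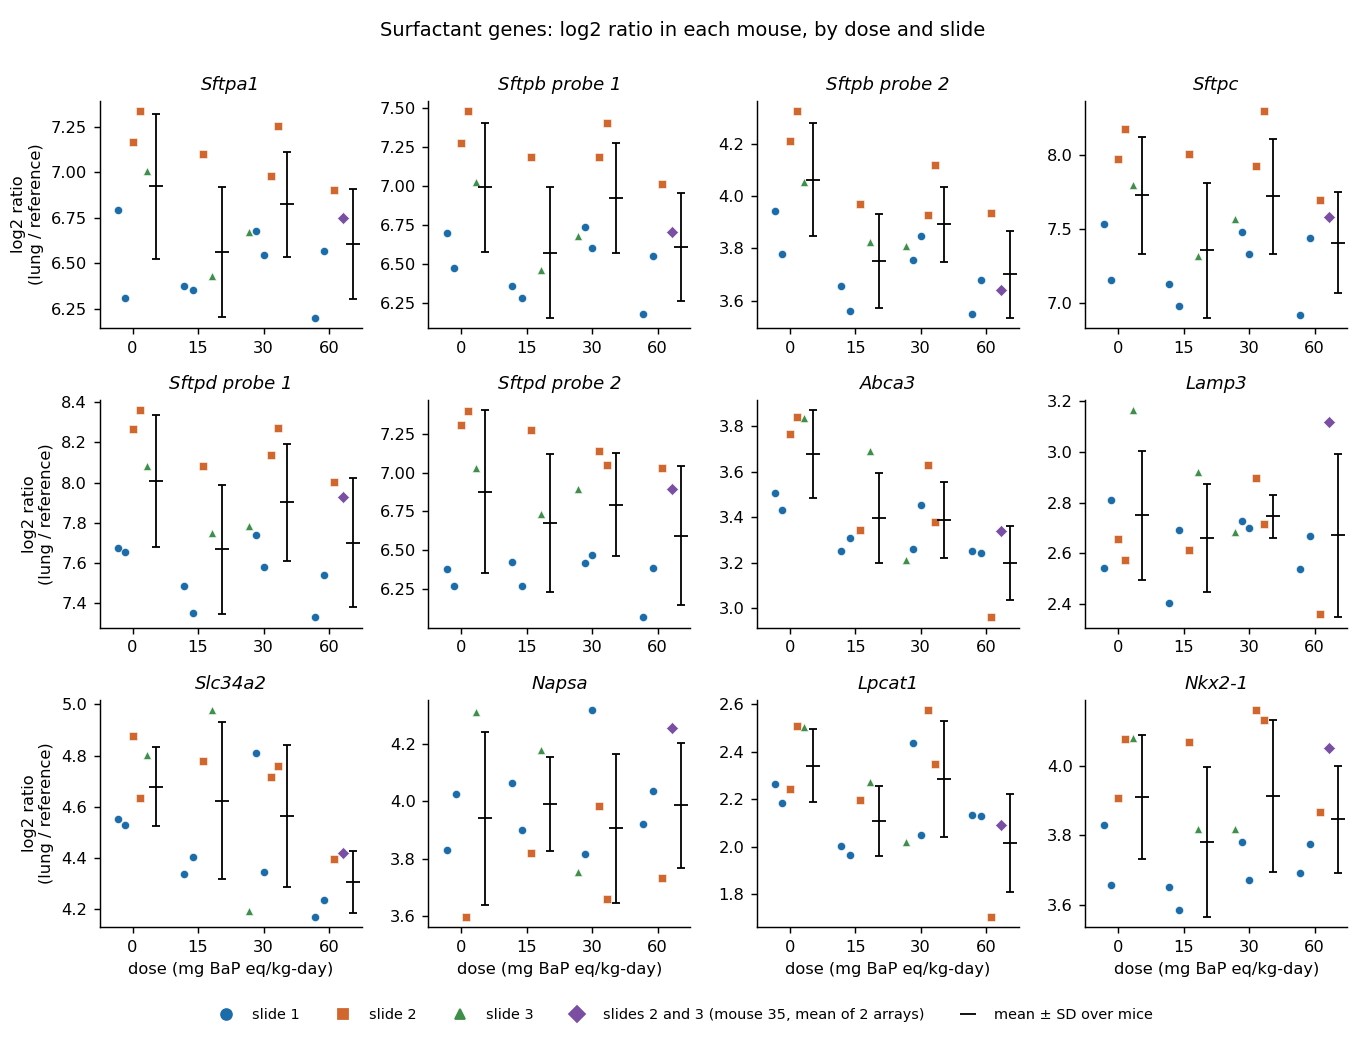
Log2 ratio of lung over reference RNA (vertical axis) in each mouse for the 12 surfactant probes, by dose in mg benzo[a]pyrene equivalents per kg per day (horizontal axis). Colours and shapes give the slide, black bars the mean ± SD over 5, 4, 5 and 4 mice. The Abca3 points at 60 mg (2.96 to 3.34) lie below every control point (3.43 to 3.84), and in Sftpc the points of slide 1 (6.92 to 7.54) lie below those of slide 2 (7.70 to 8.30).

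The genes of SP-A and SP-D, the secreted collectins, had changes that did not pass the adjusted p without slide in the model. With slide as a block only Sftpd probe 1 passed (−0.27 at D3, adjusted p = 0.0114, and −0.26 at D1, adjusted p = 0.0252). Sftpa1 (NM_023134) read 6.79, 6.31, 7.17, 7.34 and 7.01 in the D0 mice and 6.20, 6.57, 6.91 and 6.75 in the D3 mice. All 4 D3 mice were below the D0 mean, but the groups overlapped over most of their range. The change was −0.32 (SE 0.20, 95% interval −0.74 to 0.11, adjusted p = 0.348). At D1 it was −0.36 (adjusted p = 0.345) and at D2 −0.10. Sftpd (NM_009160) changed by −0.31 at D3 by its first probe (SE 0.19, adjusted p = 0.322) and by −0.28 by its second (SE 0.26, adjusted p = 0.536). Its D0 values ran from 7.65 to 8.36 by the first probe and its D3 values from 7.33 to 8.00.

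The genes of SP-B and SP-C, the hydrophobic proteins that spread the lipid film, had changes of similar size. Sftpc (NM_011359), whose product is made by AT2 cells alone in the adult lung, read 7.54, 7.16, 7.98, 8.18 and 7.80 in D0. It read 7.13, 6.98, 8.01 and 7.32 in D1, 7.57, 7.48, 7.33, 7.93 and 8.30 in D2, and 6.92, 7.44, 7.70 and 7.58 in D3. The highest single value was in a D2 mouse and the lowest in a D3 mouse, and all groups overlapped. The changes were −0.37 at D1, −0.01 at D2 and −0.32 at D3 (SE 0.24, 95% interval −0.81 to 0.17, adjusted p = 0.420). The raw lung signal of Sftpc spanned only 1.23-fold over all arrays, as given further on, which limits how far these ratios describe its level.

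For Sftpb (NM_147779) the probes gave D3 changes of similar size in the ratio but with different precision. Probe 1, the brighter, had a mean of 6.99 ± 0.41 (SD, n = 5) in D0 and 6.61 ± 0.35 (n = 4) in D3, a change of −0.38 with an SE of 0.23 (adjusted p = 0.308). Probe 2 read 3.94, 3.78, 4.21, 4.33 and 4.05 in D0 and 3.55, 3.68, 3.94 and 3.64 in D3. All 4 D3 mice were below the D0 mean, but mouse 34 (3.94) lay within the D0 range. The change of probe 2 was −0.36 with an SE of 0.12, which is 1.28-fold lower (95% interval −0.60 to −0.12, adjusted p = 0.0459). Leaving out any 1 mouse other than D0 mouse 2, D1 mice 22 and 24, D2 mouse 30 and D3 mouse 34 left its adjusted p above 0.05, and the adjusted p over the 18 omissions was between 0.0189 and 0.138. At D1 probe 2 changed by −0.31 (adjusted p = 0.132) and probe 1 by −0.42 (adjusted p = 0.323), and at D2 by −0.17 and −0.07. With slide as a block in the model, probes 1 and 2 had adjusted p of 0.0162 and 0.00334 at D3 and 0.0461 and 0.0301 at D1, without reaching 1.5-fold. In the lung channel, described further on, probe 2 changed by 0.08 at D1 and −0.22 at D3. Probe 1 changed by −0.16 and −0.07 there.

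Abca3 (NM_013855), the transporter that loads phospholipid into lamellar bodies, was lower at the top dose than in the controls. It read 3.51, 3.43, 3.77, 3.84 and 3.84 in D0, 3.25, 3.31, 3.34 and 3.69 in D1, 3.21, 3.26, 3.45, 3.63 and 3.38 in D2, and 3.25, 3.24, 2.96 and 3.34 in D3. Every D3 mouse was below every D0 mouse, and the D1 and D2 mice lay between or across these groups. Mouse 35 enters as the mean of 2 arrays, and its slide 2 array alone read 3.47, above D0 mouse 2. The mean ratio was 3.68 ± 0.19 (SD, n = 5) in D0 and 3.20 ± 0.16 (n = 4) in D3. The D3 change was −0.48 with an SE of 0.12 and a 95% interval of −0.72 to −0.23, a 1.39-fold decrease with an adjusted p of 0.0112, below the 1.5-fold needed for a call. It passed the adjusted p in all 18 omissions of 1 mouse (0.00644 to 0.0436). At D1 and D2 the changes were −0.28 and −0.29 (adjusted p = 0.186 and 0.199). The linear trend over dose fell by 0.43 on the log2 scale from D0 to D3 (adjusted p = 0.0247), the only one of 12 trends past the adjusted p, where 4.17% of all tested probes had a falling trend past it. Called trends numbered 0 of 12, beside 1.46% of all tested probes. Within slides, D3 minus D0 was −0.22, −0.59 and −0.63 on slides 1, 2 and 3.

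Lamp3 (NM_177356), a membrane glycoprotein of lamellar bodies, had no change past the test. Its D0 values were 2.54, 2.81, 2.66, 2.58 and 3.16 and its D3 values 2.54, 2.67, 2.36 and 3.12. The D3 change was −0.08 (95% interval −0.38 to 0.22, adjusted p = 0.777), and at D1 and D2 it was −0.09 and −0.00.

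Slc34a2 and Lpcat1 had D3 groups that did not overlap the controls in the ratio, but neither passed the adjusted p. With Abca3 this made 3 of 12 probes with every D3 mouse below every D0 mouse, beside 7.18% of all tested probes. With the slide 2 array alone for mouse 35 it was 1 of 12, Lpcat1, and with the slide 3 array alone it was the same 3. Slc34a2 (NM_011402) encodes the sodium-coupled phosphate transporter that takes phosphate back from the alveolar fluid. It read 4.55, 4.53, 4.88, 4.64 and 4.80 in D0 and 4.17, 4.24, 4.40 and 4.42 in D3, and every D3 mouse was below every D0 mouse, although the slide 2 array of mouse 35 (4.63) was above D0 mice 1 and 2. The change was −0.37 (SE 0.14, 95% interval −0.67 to −0.08, adjusted p = 0.0925), against −0.05 at D1 and −0.11 at D2, where the mice ran from 4.34 to 4.98 and from 4.19 to 4.81, across the control range. Lpcat1 (NM_145376), the acyltransferase that remodels phosphatidylcholine towards the saturated form of surfactant, read 2.27, 2.18, 2.24, 2.51 and 2.51 in D0. In D3 it read 2.13, 2.13, 1.70 and 2.09, so that mouse 34 lay well below the other D3 mice. The change was −0.33 (SE 0.12, 95% interval −0.59 to −0.07, adjusted p = 0.0930), with −0.23 at D1 (1.97 to 2.27) and −0.06 at D2 (2.02 to 2.58).

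Napsa (NM_008437), the aspartic protease that trims the SP-B precursor, had similar group means in D0 and D3. It read 3.83, 4.03, 3.60 and 4.31 in 4 D0 mice and 3.92, 4.03, 3.73 and 4.26 in D3. The fifth control, D0 mouse 4, had no usable spot, because the scanner software marked it as an outlier with a reference signal of 15879 where the other arrays had 445 to 744. The change was 0.04 (95% interval −0.28 to 0.37, adjusted p = 0.896).

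Nkx2-1 (NM_009385), the transcription factor of the set, had no change past the test. Its D0 values were 3.83, 3.66, 3.91, 4.08 and 4.08 and its D3 values 3.69, 3.77, 3.87 and 4.05. The changes were −0.13 at D1, 0.00 at D2 and −0.06 at D3 (95% interval −0.32 to 0.19, adjusted p = 0.794). The spots of this probe within an array had an SD of 0.0879 to 0.216, and 7 to 10 of them were averaged per array.

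**Figure D2:**
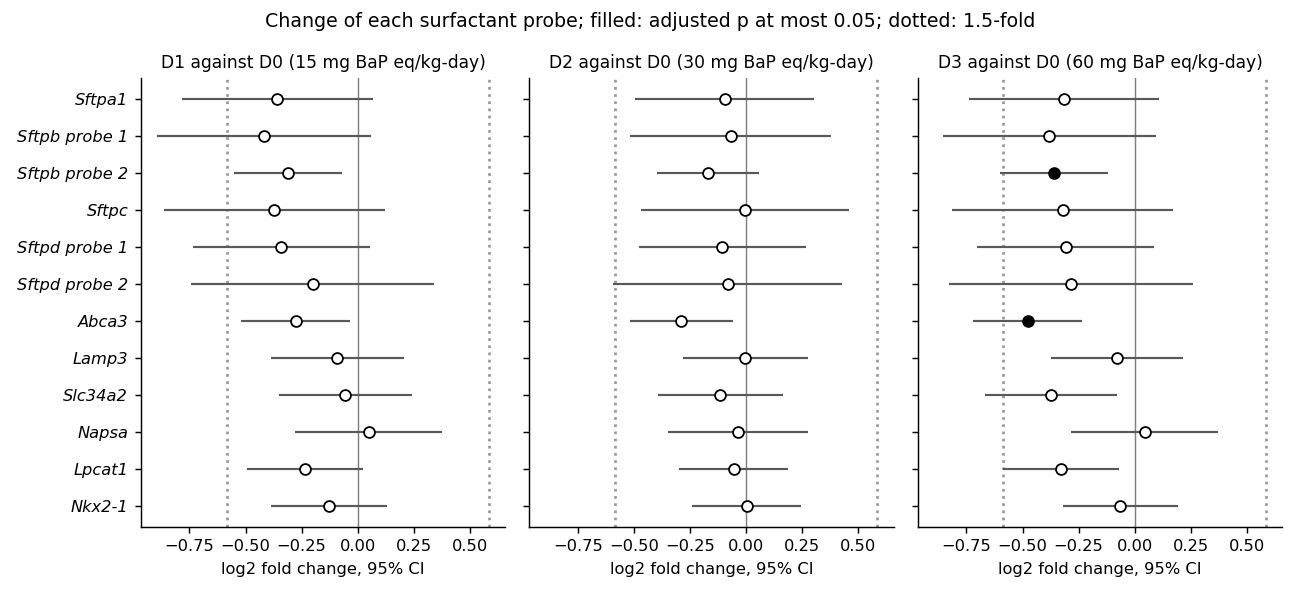
Log2 fold change of each surfactant probe against D0 (horizontal axis) with its 95% confidence interval, in 3 panels for D1, D2 and D3. Filled points pass an adjusted p of 0.05 and dotted lines mark 1.5-fold. The filled points are Abca3 (−0.48) and Sftpb probe 2 (−0.36), both at D3, and no point lies beyond a dotted line.

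The surfactant probes had higher means at D2 than at D1 in 9 of 12 cases, and lower means at D3 than at D2 in 11 of 12. These steps had medians of 0.14 and −0.20, and none passed the adjusted p. For D2 against D1 no member probe was called, where 0% of all tested probes were. For D3 against D2 none was called either, where 0.106% were. At an unadjusted p under 0.05, 0 and 1 of the 12 differed, beside 9.82% and 11.7% of all tested probes, the 1 being Lpcat1 (−0.27, adjusted p = 0.397). With slide as a block in the model these counts were 3 and 4 of the 12, beside 12.3% and 15.9% of all tested probes, and the smallest adjusted p were 0.298 and 0.161. The F test over the 3 doses passed for 0 of 12 probes, beside 7.79% of all tested probes. At an unadjusted F p under 0.05 it was 2 of 12, beside 22.5% of all tested probes. The smallest adjusted F p was that of Abca3 (0.0590), and the next was that of Sftpb probe 2 (0.142).

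The transcripts of the secreted surfactant proteins varied more between slides than between doses. In Sftpc the ratio ran from 6.92 to 7.54 on the 8 arrays of slide 1, from 7.70 to 8.30 on the 7 of slide 2 and from 7.13 to 7.80 on the 4 of slide 3, so slides 1 and 2 did not overlap. Taken alone, slide accounted for 72.4% of its variance over the mice and dose for 19.2%. In Sftpa1, Sftpb probe 1, both Sftpd probes and Nkx2-1 slide accounted for 69.8% to 89.9%. In Sftpb probe 2 the shares were 48.9% for slide and 44.3% for dose. In Abca3 the order was the other way, with 12.9% for slide and 53.6% for dose, and in Lpcat1 it was 5.43% and 36.7%. The median over all tested probes was 19.2% for slide and 23.4% for dose. Mouse 35 shows the size of this within 1 animal: its array on slide 3 read lower than that on slide 2 by 0.90 in Sftpc, 0.75 in Sftpb probe 1 and 0.59 in Sftpa1, but its arrays differed by only 0.02 in Lamp3 and 0.05 in Napsa.

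With slide as a block in the model, the errors of the slide-dependent genes became smaller. At D1 some changes also became smaller, that of Sftpb probe 1 from −0.42 to −0.32 and that of Sftpd probe 2 from −0.20 to −0.10. The SE of Sftpd probe 1 went from 0.19 to 0.07, and its D3 change from −0.31 to −0.27 (adjusted p = 0.0114). The count past the adjusted p at D3 was then 4 of 12 (Sftpb probes 1 and 2, Sftpd probe 1 and Abca3, with changes of −0.35, −0.35, −0.27 and −0.46), where 9.28% of all tested probes were lower. At D1 it was 3 of 12 (Sftpb probes 1 and 2 and Sftpd probe 1, with changes of −0.32, −0.27 and −0.26), where 4.3% were. None of these reached 1.5-fold. The F test then passed for 4 of 12 (those that passed at D3), beside 13.2% of all tested probes. Within slides, D3 minus D0 had a median over the 12 probes of −0.17 on slide 1, −0.25 on slide 2 and −0.48 on slide 3, and 11, 9 and 12 of the 12 were below 0. Slide 3 held 1 mouse of each group, and the controls on slides 1 and 2 numbered 2 each.

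The D3 changes of the secreted surfactant protein genes were smaller in the lung channel on its own. When the Cy5 signal was divided by the 75th percentile of its array and the reference was left out, the D3 change of Sftpa1 was −0.03, of Sftpb probe 1 −0.07, of Sftpb probe 2 −0.22, of Sftpc −0.18 and of Sftpd −0.07 and 0.02. Abca3 changed by −0.29 there (adjusted p = 0.114), also less than in the ratio. Slc34a2 and Lpcat1 had changes close to those of the ratio, −0.37 (adjusted p = 0.292) and −0.33 (adjusted p = 0.228). In the lung channel the median over the 12 probes at D3 was −0.07, beside −0.04 over all tested probes, and 0 of 12 passed the adjusted p. No member had D3 mice clear of the D0 mice in this channel. With slide as a block as well, Abca3 changed by −0.28 at D3 (adjusted p = 0.0343), 1 of 12 beside 16.3% of all tested probes that were lower. In the same fit Sftpc changed by −0.26 at D1 (adjusted p = 0.0412), 1 of 12 beside 22.8%. The raw lung signal of Sftpc was nearly flat. Its divisor, the 75th percentile, was 386 to 600 in the D0 arrays, 458 to 735 in D1 and 376 to 765 in D3. Neither lung channel value of Sftpc, at D1 or at D3, is therefore given as a change in its own signal. These forms of the lung channel were chosen after the data were seen.

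The reference channel of the surfactant protein genes followed the slide. For Sftpc, log2 of the reference signal over the 75th percentile of its array was 3.97 to 4.29 on slide 1, 2.16 to 3.31 on slide 2 and 2.93 to 3.11 on slide 3. Slide accounted for 90.9% of the variance of the Sftpc reference signal and dose for 2.43%. For Sftpa1, Sftpb probe 1 and Sftpd probe 1 the slide share was 80.4%, 91.5% and 92.4%, and the median over all tested probes was 51.1%. The raw lung signal of Sftpc spanned only 1.23-fold over the arrays (463801 to 570322 before any scaling), while the 75th percentile of the lung channel spanned 2.03-fold (376 to 765). The part of these channel differences in the dose comparison was not tested beyond the values given.

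**Figure D3:**
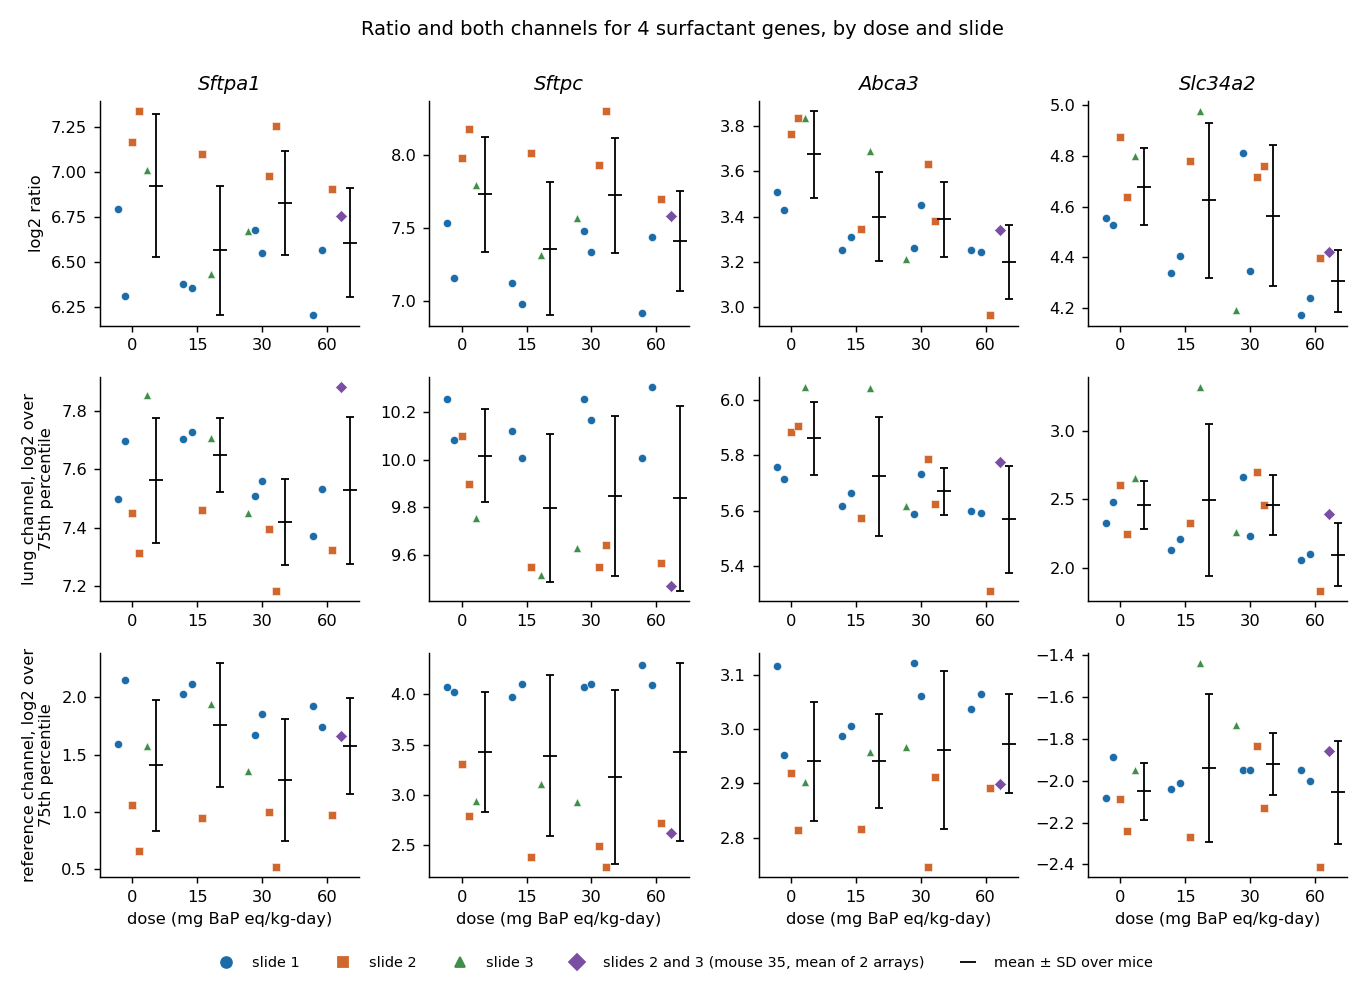
Sftpa1, Sftpc, Abca3 and Slc34a2 in each mouse, by dose in mg benzo[a]pyrene equivalents per kg per day. Rows give the log2 ratio, the lung channel and the reference channel, both channels as log2 over the 75th percentile of the array, and black bars the mean ± SD. In Sftpc the reference channel separates slide 1 (3.97 to 4.29) from slides 2 and 3 (up to 3.31), and the lung channel of Abca3 shifts down at 60 mg by 0.29.

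**Figure D4:**
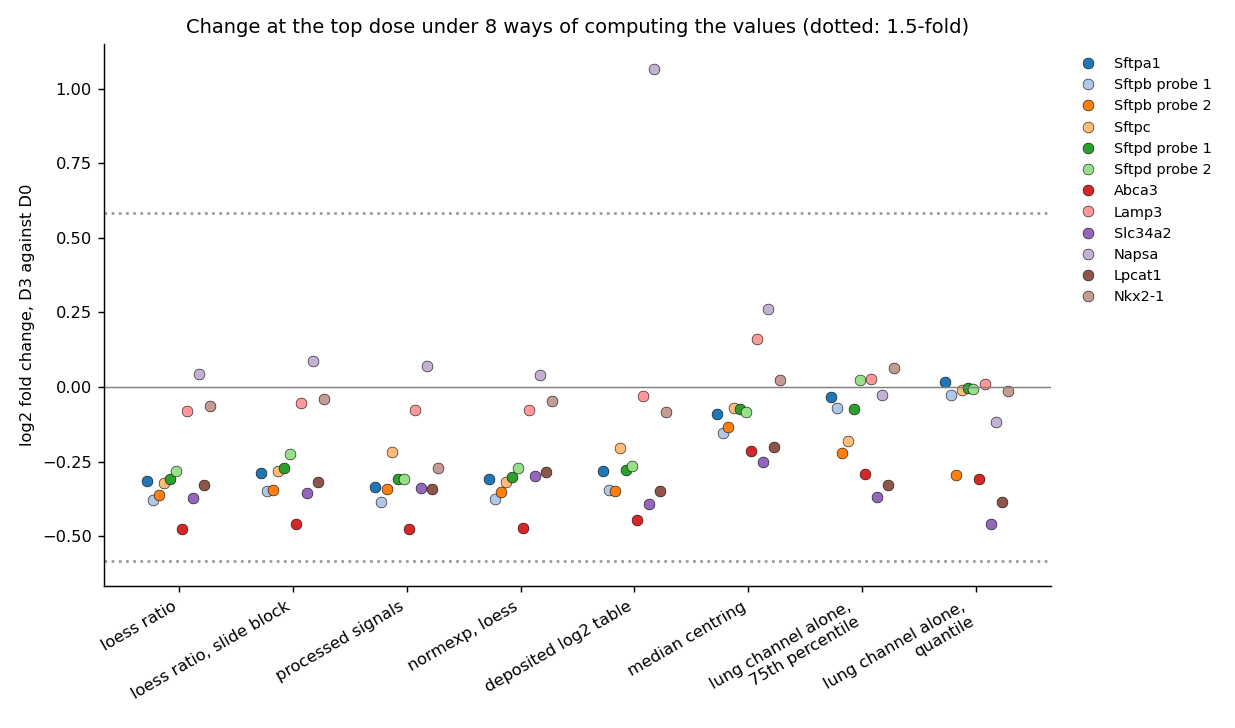
Log2 fold change of each surfactant probe at D3 against D0 (vertical axis) under 8 ways of computing the values (horizontal axis), with dotted lines at 1.5-fold. Abca3, Slc34a2, Lpcat1, Sftpc, Sftpd probe 1 and both Sftpb probes stay below 0 in all 8, and Sftpa1, Sftpb probe 1 and both Sftpd probes lie between −0.07 and 0.02 in the lung channel alone. The Sftpc points of the lung channel rest on a nearly flat raw signal. The Napsa point at 1.07 comes from the deposited table, which kept the outlier spot of D0 mouse 4.

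Most surfactant genes varied in the same direction from array to array within a dose group, with r above 0 in 37 of 45 pairs. Over these pairs of genes, with dose means removed, Pearson r ranged from −0.37 to 0.98 with a median of 0.47, and 13 pairs passed an adjusted p of 0.05 by permutation of mice within groups (14 by Spearman rho). These permutations moved mice across slides. With slide means also removed the median was 0.39, with 43 of 45 above 0. An exact permutation test within dose group and slide had 64 arrangements and a smallest p of 0.0156, and 32 arrangements for pairs with Napsa. It gave 11 of 45 pairs with an unadjusted two-sided p under 0.05 and 0 past the adjusted p (smallest 0.117). With so few arrangements a pair could pass only if many others did, so the count of 0 does not show that the pairs are unrelated. The median r was 0.53 in the lung channel alone, and in the reference channel, which holds no RNA of these mice, it was 0.58. All these points share arrays and their scaling.

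SP-A, SP-B, SP-C and SP-D genes formed the tightest block. Sftpa1 and Sftpc had r = 0.98 and rho = 0.99 in the ratio (permutation p = 1e-05 for each, the smallest that 100000 permutations can give, adjusted p = 7.5e-05). Without the 2 mice farthest from the median r was 0.98, after removal of slide means 0.91 and on slide 1 alone 0.91. In the lung channel it was 0.04 and in the reference channel 0.81. Sftpa1 and Sftpd had r = 0.93 in the ratio, 0.84 in the lung channel and 0.97 in the reference channel. In the ratio Nkx2-1 followed the 4 genes with r of 0.85 to 0.89 (adjusted p = 0.000257 to 0.00166 by permutation across slides). With slide means removed r became 0.56 to 0.65 (adjusted p = 0.192 for each by the exact test within slides). In the lung channel its r with Sftpa1, Sftpb, Sftpc and Sftpd was 0.60, 0.39, −0.46 and 0.63. In the reference channel it was 0.89, 0.84, 0.59 and 0.84.

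Abca3 and Lpcat1 had r = 0.71 and rho = 0.73 (permutation p = 0.00361 and 0.00293, adjusted p = 0.0148 and 0.012). The value was 0.70 with slide means removed (exact permutation p within slides = 0.422), 0.75 in the lung channel and 0.67 without the 2 mice farthest from the median, but 0.26 on the 8 mice of slide 1. Abca3 and Sftpa1 had r = 0.28 (adjusted p = 0.39). Lamp3 and Napsa had r = 0.64 (adjusted p = 0.0371) and rho = 0.60 (adjusted p = 0.075), and r was 0.41 without the 2 farthest mice.

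**Figure D5:**
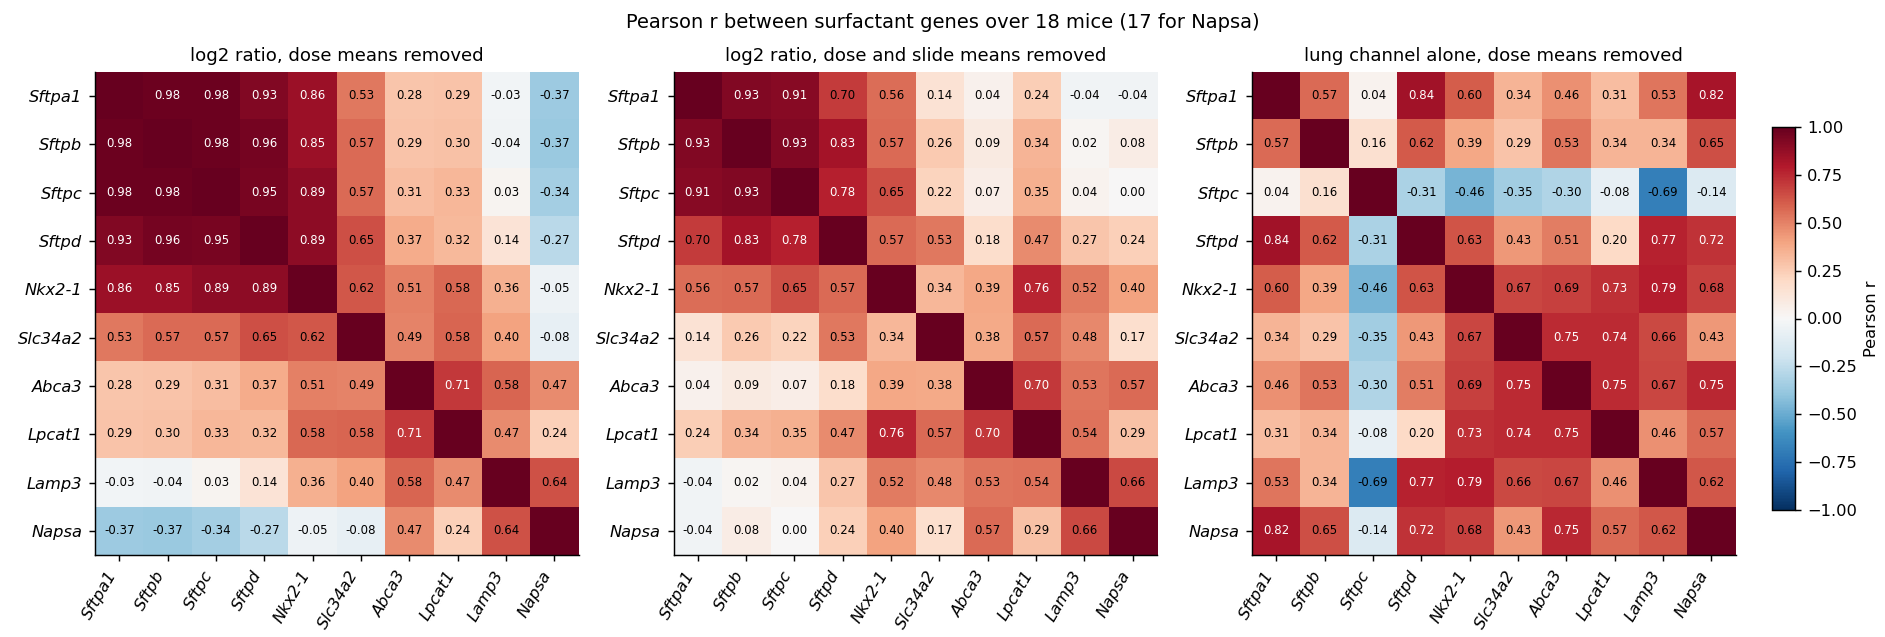
Pearson r between the 10 surfactant genes over 18 mice (17 for Napsa), in the log2 ratio with dose means removed, with dose and slide means removed, and in the lung channel alone. Rows and columns are genes and the colour scale runs from −1 to 1. Sftpa1, Sftpb, Sftpc, Sftpd and Nkx2-1 form a red block in the first panel that pales in the second, and Sftpc leaves the block in the third, where its r with Sftpa1 is 0.04.

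Outside the set, the genes most like the mean of the 10 over the 18 mice were Ranbp9 (r = 0.94), Myh14 (0.93), Gja4 (0.92), Myh7 (0.91) and Atp6v1c2 (0.91). Neither dose means nor slide means were removed for these r, so differences between slides and doses enter them. Likeness within slides was not tested. The D3 changes of these similar genes were −0.36 to −0.21, with adjusted p between 0.357 and 0.425. In the lung channel their D3 changes were −0.18 to −0.04. The genes were picked by likeness to the set in the same ratios, so their D3 changes in the ratio are not a separate result.

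Surfactant lipid synthesis, taken from a list of 19 genes of which 18 were tested, showed 1 called gene at D1 and 0 at D2 and D3. Of all tested probes 1.06%, 0.625% and 2.44% were called at these doses. Lpin1, a phosphatidate phosphatase, was higher at D1 by 0.61 (adjusted p = 0.0360) and had a D3 change of 0.46 (adjusted p = 0.0703; 0.44 with slide as a block, adjusted p = 0.0187). Of genes named after their values were seen, 3 of the 18 were lower at D3 by the adjusted p alone, where 6.37% of all tested probes were. They were Acaca, the first enzyme of fatty acid synthesis, with a change of −0.39 (adjusted p = 0.0358), Fabp5, a fatty acid binding protein, with −0.34 (0.0358) and Chka, choline kinase, with −0.23 (0.0268). At D1 Agpat2 was higher, with a change of 0.49, and Pcyt1a, the rate-limiting enzyme of phosphatidylcholine synthesis, lower, with −0.25 (adjusted p = 0.0223 and 0.0414). At D3 Agpat2 changed by 0.25 (adjusted p = 0.184), and by 0.26 with slide as a block (adjusted p = 0.0258). The brightest genes Acly and Scd1 changed by −0.14 and −0.12 at D3. The median of the list at D3 was −0.07.

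Of 12 genes for lamellar body traffic, protein processing and surfactant turnover, 0 were called and 0 passed the adjusted p at any dose, and their median at D3 was −0.03. Prdx6, whose phospholipase activity degrades surfactant lipid, changed by −0.25 (adjusted p = 0.105), Ctsh, a protease of SP-B and SP-C processing, by −0.10, and Adgrf5, the receptor that restrains surfactant release, by −0.01.

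Among 9 tested transcription factors of the lung epithelium, Tfcp2l1, a grainyhead family factor, was called lower at D1 (−0.61, adjusted p = 0.0242) and D3 (−0.90, adjusted p = 0.000721). Its D0 values ran from 1.12 to 1.88 and its D3 values from 0.52 to 0.83, without overlap, and the change was −0.95 in the lung channel. Foxa1, a forkhead factor of surfactant promoters, changed by −0.48 at D3 (adjusted p = 0.0128), short of 1.5-fold, and by −0.43 in the lung channel. Foxa2 and Etv5 changed by 0.03 and 0.05 and passed no test.

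Of 12 other AT2 markers, 1 was called at D3, where 2.44% of all tested probes were. All 12 had a change below 0 there in the ratio (median −0.19), where 50.5% of all tested probes did. Hc, complement component 5, was lower, with a change of −0.93 (SE 0.24, adjusted p = 0.0141), its D3 values of 5.92 to 6.48 lying below the D0 values of 6.94 to 7.64, and the change was −1.08 in the lung channel. Over the alternative settings the list had 0 to 2 calls at D3, and 0 to 1 when single mice were left out. By the adjusted p alone, and named after their values were seen, Ppp1r14c was lower, with a change of −0.41 (adjusted p = 0.00572), and Cxcl15, a chemokine of lung epithelium, with −0.44 (adjusted p = 0.0457). Cd74, Lyz1 and Lyz2, the brightest, changed by −0.15, −0.21 and −0.06, and Lyz2 by 0.61 in the lung channel. Lyz2 and Cd74 are also made by macrophages.

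Markers of other lung cells are given here beside the surfactant genes, and their part in the values above was not tested. Of 8 genes of general epithelium 0 were called at D3 (median −0.07, range −0.34 to 0.12). The brightest were Krt18 at −0.34 (adjusted p = 0.0158), Krt19 at −0.01 and Cldn3 at −0.18. Of 7 AT1 markers 0 were called (median −0.17, range −0.41 to 0.24). The brightest were Hopx at −0.41, Emp2 at −0.28 and Ager at −0.39 (−0.04 in the lung channel), while Pdpn and Clic5, named after their values were seen, were at 0.24 and 0.07. Their mean log2 ratio ran from 4.71 to 5.06 in the D0 mice and from 4.55 to 4.97 in the D3 mice. Of 5 club cell markers 0 were called (median −0.37, range −1.11 to −0.14), with Scgb1a1 at −0.36, Cyp2f2 at −0.37 and Aldh1a7 at −0.14, and their mean ran from 5.45 to 7.10 in D0 and from 5.17 to 6.43 in D3. Of 7 ciliated cell markers 0 were called (median −0.18, range −0.39 to 0.13), with Tppp3 at −0.39, Dynlrb2 at −0.07 and Cfap126 at −0.18.

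The 6 alveolar macrophage markers had a D3 median of −0.49 and 0 calls at D3. Ear1 was called lower at D2 with a change of −1.52 (adjusted p = 0.0163). Of the brightest, Ear2 and Chil3 had D3 changes of −0.69 and −1.03 (adjusted p = 0.0623 and 0.0963), while that of Marco was 0.94 (adjusted p = 0.0745). Their mean ran from 4.83 to 5.23 in D0 and from 4.48 to 4.95 in D3. Of 7 endothelial markers 2 were called higher at D3, Pecam1 (0.66, adjusted p = 0.00672) and Emcn (0.73, adjusted p = 0.00890), where 2.44% of all tested probes were called. Over the alternative settings 0 to 2 of the list were called at D3. The median of the list was 0.07. The brightest, Cldn5, Kdr and Cdh5, changed by −0.17, 0.07 and 0.27 in the ratio and by 0.48, 0.51 and 0.44 in the lung channel, with no adjusted p under 0.05 in the ratio. The mean of the 7 ran from 4.52 to 4.99 in D0 and from 4.78 to 5.11 in D3.

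None of 6 heart muscle markers was called (D3 median −0.16, range −1.20 to 0.44). The brightest were Myh6 at −1.20, Actc1 at −0.25 and Tnnt2 at −0.33 at D3, while Nppa and Ryr2, named after their values were seen, were at 0.44 and 0.14. Their mean ran from 2.15 to 2.64 in D0 and from 0.61 to 3.49 in D3. Of markers of the thyroid, a tissue that also uses Nkx2-1, Tg was tested and changed by −0.39 at D3 (adjusted p = 0.0528).

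With slide as a block, 2 of 7 AT1 markers also passed the adjusted p at D3, Hopx (−0.37, adjusted p = 0.00261) and Ager (−0.36, adjusted p = 0.00391). Of all tested probes 9.28% were lower by that adjusted p. In the lung channel without the block Hopx changed by −0.24 and Ager by −0.04. Also past the adjusted p with the block were Krt18 of the general epithelium (−0.33), Tppp3 of the ciliated cells (−0.36), the macrophage markers Ear2 (−0.68) and Marco (0.87), Pecam1 (0.70), Emcn (0.78) and Tg (−0.41). None of the club cell or heart muscle markers passed.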

How the data were processed

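Lung RNA of 18 mice was measured on 19 two-colour Agilent arrays. The authors deposited the scanner output as spot intensity values in both channels, and a table of log2 ratios of lung over reference that they had normalized by LOWESS on median signals without background subtraction. The file headers give Agilent Feature Extraction 11.0.1.1, while the methods name another version. The direction of the ratio follows the dyes in the labels (Cy5 for lung, Cy3 for reference), and no dyes were swapped.

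Median intensities without background subtraction were normalized by loess within each array (span 0.3). Of 62976 spots, 3671 control spots and the 171 to 323 outlier spots per array were left out, and spots of 1 probe were averaged. Probes were kept where the lung channel was well above background in at least 4 mice of 1 group and every group had a value in at least 3 mice, which left 31046 of 55681 probes. Group differences were tested in R 4.3.3 by the linear models of limma 3.58.1 with moderated errors, fitted over all 4 groups, with Benjamini-Hochberg adjustment over all tested probes, and limma stands in for the MAANOVA of the methods. The tool was tested on simulated data. Probes were named through RefSeq, where 21465 of 22765 identifiers matched. For genes with several probes, the brightest in the lung channel stood for the gene in correlations and lists.

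The 10 genes, the other lists and the tests were chosen with earlier results of these data known. All 10 genes were named, and from other lists every gene called at any dose and the 3 brightest where fewer were called. The 5 most similar genes were taken by Pearson r with the mean of the set. Rtkn2, Scgb3a2, Cd68 and Siglec5 were not matched to a probe. Alternatives were processed signals, normexp background correction (offset 50), median centring, the quantile-normalized lung channel, the deposited table, no filter, slide as a block, mouse 23 in D1, each array of mouse 35 alone and omission of each mouse. The lung channel over the 75th percentile, slide 1 alone and the permutations within slides were chosen after seeing the data. The number of arrays limits the precision.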

Additional observations from a re-analysis of the deposited data

Results flagged for a closer look

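In 48 groups of 4 or 5 mice (12 probes at 4 doses), 3 held a mouse far from the others by Dixon's criterion, which chance gives in about 1 group in 20. In D1, mouse 24 had a log2 ratio of 7.10 in Sftpa1, the gene of the collectin SP-A, where the other D1 mice had 6.35 to 6.43. Mouse 24 was the single D1 mouse on slide 2, whose arrays read 6.91 to 7.34 in this gene. In D2, mouse 29 had 2.90 in Lamp3, the lamellar body glycoprotein, where the others had 2.68 to 2.73. In D3, mouse 34 had 1.70 in Lpcat1, the acyltransferase of surfactant phosphatidylcholine, where the others had 2.09 to 2.13.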

How the results depend on the processing

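No surfactant probe was called under any alternative. Abca3 was below the controls at D3 in 32 of 32 settings (−0.54 to −0.21, adjusted p 0.00644 to 0.890), and so was Sftpb probe 2 (adjusted p 0.00334 to 0.933). The count past the adjusted p alone at D3, 2 in the main analysis, was 1 with processed signals, the deposited table, no filter, the slide 2 array alone for mouse 35, or the lung channel over its 75th percentile with slide as a block. It was 0 with median centring, both forms of the lung channel without a block and slide 1 alone, and 4 with slide as a block. At D1 that count, 0 in the main analysis, was 3 with slide as a block and 1 in the lung channel with the block. The F test count, 0 in the main analysis, was 4 with slide as a block and 1 with the slide 3 array alone for mouse 35. Leaving out each mouse in turn gave D3 counts of 1 to 2 and F counts of 0 to 1, the 1 arising when mouse 2 (D0), mouse 25 (D1) or mouse 29 (D2) was omitted. The D3 median was −0.42 to −0.18 over these omissions (−0.18 without D3 mouse 31), the D1 median −0.35 to −0.21 and the D2 median −0.17 to −0.01.

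With median centring the median change over all tested probes was 0.17, 0.12 and 0.06 at D1, D2 and D3. The median of the 12 probes was then 0.068, 0.15 and −0.087, which is −0.10, 0.03 and −0.15 relative to all probes, and the median r between members was 0.87. The D3 median was −0.019 in the quantile-normalized lung channel, −0.071 in that over the 75th percentile (D1 −0.0022) and −0.061 with slide as a block as well. Calls at D3 in the other lists without the exposure markers, 4 in the main analysis, were 2 with processed signals, 0 with median centring, 8 in the lung channel with slide as a block and 2 on slide 1 alone. By list they ran from 0 to 1 for the transcription factors and thyroid, and 0 to 2 for the other AT2 and endothelial markers. For alveolar macrophages they ran from 0 to 3. A total need not hold the same genes as in the main analysis. The causes were not tested.

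Of 1116 values for single probes under alternatives, 108 had the opposite sign, none of them past the adjusted p in the main analysis. In the scanner software's processed signals they were at D2 Sftpc 0.032, Sftpd probe 2 0.028, Lamp3 0.012, Nkx2-1 −0.0077. With normexp background correction they were at D1 Slc34a2 0.073. With median centring they were at D1 Sftpc 0.060, Sftpd probe 1 0.0087, Sftpd probe 2 0.095, Abca3 0.10, Lamp3 0.29, Slc34a2 0.17, Nkx2-1 0.075 and at D2 Sftpa1 0.16, Sftpb probe 1 0.17, Sftpb probe 2 0.073, Sftpc 0.26, Sftpd probe 1 0.14, Sftpd probe 2 0.15, Lamp3 0.23, Slc34a2 0.046, Napsa 0.19, Lpcat1 0.12 and at D3 Lamp3 0.16, Nkx2-1 0.023. In the lung channel alone, quantile normalized, they were at D1 Sftpa1 0.11, Sftpb probe 2 0.010, Sftpc 0.077, Sftpd probe 1 0.010, Sftpd probe 2 0.11 and at D2 Sftpb probe 1 0.032, Lamp3 0.063, Nkx2-1 −0.022 and at D3 Sftpa1 0.016, Lamp3 0.012, Napsa −0.12. In the deposited log2 table they were at D2 Sftpc 0.055, Lamp3 0.031, Napsa 0.98, Nkx2-1 −0.022. With slide as a block they were at D2 Napsa 0.0020. With mouse 23 counted in D1 they were at D2 Sftpc 0.033, Lamp3 0.011, Napsa 0.0030, Lpcat1 0.011. In the lung channel alone, over the 75th percentile, they were at D1 Sftpa1 0.087, Sftpb probe 2 0.078, Sftpd probe 2 0.17, Slc34a2 0.035 and at D2 Lamp3 0.054 and at D3 Sftpd probe 2 0.025, Lamp3 0.026, Napsa −0.028, Nkx2-1 0.065. In the same with slide as a block they were at D1 Sftpa1 0.053, Sftpb probe 2 0.029, Sftpd probe 2 0.18, Lamp3 0.0071, Slc34a2 0.026 and at D2 Lamp3 0.054 and at D3 Sftpd probe 2 0.057, Lamp3 0.056, Nkx2-1 0.084. On slide 1 alone they were at D1 Sftpd probe 2 0.025 and at D2 Sftpa1 0.062, Sftpb probe 1 0.084, Sftpc 0.060, Sftpd probe 2 0.12, Lamp3 0.037, Slc34a2 0.036, Napsa 0.14, Lpcat1 0.019, Nkx2-1 −0.016. Under omission of single mice, 13 probe and dose combinations changed sign in at least 1 omission, with ranges of Sftpa1 D2 −0.25 to 0.0076, Sftpb probe 1 D2 −0.20 to 0.053, Sftpc D2 −0.15 to 0.11, Sftpd probe 2 D2 −0.24 to 0.048, Lamp3 D1 −0.18 to 0.013, Lamp3 D2 −0.056 to 0.099, Lamp3 D3 −0.23 to 0.024, Slc34a2 D1 −0.17 to 0.042, Napsa D1 −0.065 to 0.17, Napsa D2 −0.15 to 0.088, Napsa D3 −0.070 to 0.17, Lpcat1 D2 −0.13 to 0.011, Nkx2-1 D2 −0.060 to 0.063. No paired analysis was possible because mouse numbers are unique to their group. Slide, which held every group, was the only block available and its values are given above.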
